A study of Mus musculus with 8 samples.

Results

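The data describe 10 mouse genes that handle amino acid shortage and cell stress, in Paneth cells taken 3 hours after an injection of tumor necrosis factor (TNF). The genes were listed by name, with no threshold on a measured value, by a choice made with earlier results of these data known: Asns, Trib3, Chac1, Sesn2, Psat1, Phgdh, Shmt2, Cth, Slc7a11 and Slc3a2. They were found in the count table by their Ensembl gene IDs, and all 10 of the 55414 listed IDs that carry these names passed the filter on low counts, which left 13368 genes for testing. Paneth cells are the granule-filled cells at the base of the crypts of the small intestine, and they secrete antimicrobial peptides in bulk. The mice were wild type (WT). One group received PBS, the salt solution used as control, and the other received TNF, an inflammatory cytokine. The small intestine was collected after 3 hours in both groups, and Paneth cells were purified on a cell sorter. There were 4 PBS and 4 TNF libraries of bulk RNA, called biological replicates by the submitters, and the comparison asks how TNF alters gene expression in these cells. The methods of the study describe C57BL/6J mice and, for a collection of Paneth cell data that includes this experiment, samples from individual mice. The age of the mice was not given in the sources used here.

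ATF4 is a transcription factor that cells translate more strongly when the initiation factor eIF2 is phosphorylated, which happens when amino acids run short, when proteins misfold in the endoplasmic reticulum, or when viral RNA is sensed. Together with partners of the C/EBP family it switches on genes that import or make amino acids, protect against oxidants and charge tRNAs. A secretory cell that makes large amounts of peptide rich in cysteine draws on these same supplies. Among the 10 genes, Trib3 encodes a pseudokinase that feeds back on ATF4, Chac1 an enzyme that breaks down glutathione, and Sesn2 a leucine sensor that restrains the growth kinase complex mTORC1. Asns makes asparagine, Phgdh and Psat1 carry out the first steps of serine synthesis, Shmt2 turns serine into glycine in mitochondria, and Cth releases cysteine from cystathionine. Slc7a11 is the cystine and glutamate exchanger, and Slc3a2 is the heavy chain that it and several other amino acid transporters need to reach the cell surface.

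The short DNA element through which ATF4 and its C/EBP partners act on such genes was looked for in their promoters. The search used the letters TGATGNAA on both strands of the 300 bases from 250 before to 50 after each transcription start in RefSeq (GRCm38.p6), which held 9 of the 10 genes. A match was found in 4 of these 9, against 1219 of all 27025 genes of the same table (4.51%) and 264 of the 9785 tested genes it holds (2.698%). The matches follow within 30 bases of the gene's own strand, with the matching letters in capitals, because these are the places where the known regulator of the group could read each gene. In Asns (chr6:7693214-7693243, minus strand) the match lay at bases -23 to -16 from the start. In Trib3 (chr2:152344028-152344057, minus strand) it lay at bases 15 to 22 and was read on the opposite strand. In Chac1 (chr2:119351038-119351067, plus strand) it lay at bases -193 to -186, again on the opposite strand. Slc7a11 had a pair of matches, at bases -66 to -59 (chr3:50443661-50443690, minus strand) and on the opposite strand at bases -47 to -40 (chr3:50443642-50443671).
Asns: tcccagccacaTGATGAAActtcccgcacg
Trib3: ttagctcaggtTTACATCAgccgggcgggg
Chac1: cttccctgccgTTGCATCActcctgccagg
Slc7a11, upstream match: tctcatgtggcTGATGCAAacctggagaat
Slc7a11, downstream match: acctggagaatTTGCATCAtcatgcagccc
No match lay in the windows of Sesn2, Psat1, Phgdh, Shmt2 and Slc3a2. The count depends on where the start is placed: with the canonical starts of GENCODE (GRCm39), 2 of the 10 genes held a match, against 836 of 21757 protein-coding genes (3.84%). A second element, TGACNNNGC, through which the oxidant-sensing factor NRF2 acts, was also looked for. It was found in 3 of the 9 genes with RefSeq starts, against 3781 of all 27025 genes (14.0%) and 1668 of the 9785 tested genes (17.1%). With the GENCODE starts it was in 2 of the 10 genes and in 2713 of 21757 (12.5%). The RefSeq windows with it belonged to Asns, Sesn2 and Phgdh, and none of the matches overlapped the first element. The NF-kB site was found in 0 of the 9 genes, against 1388 of all 27025 genes (5.14%) and 605 of the 9785 tested genes (6.18%). With the GENCODE starts this site was in 0 of the 10 genes. A match describes the letters of a window and no more.

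The PBS libraries held 23824717 to 32576077 counts and the TNF libraries 25483606 to 29039086, of which 13255 to 25654 and 6315 to 19890 fell on the 10 genes. TNF replicate 4 stood apart: the alpha-defensin genes took 51.4% of its counts (32.0% to 37.9% in the other 7 libraries), and the 10 genes together had 243 CPM (counts scaled to a common library total), against 556 to 788 elsewhere. Levels below are CPM corrected by the TMM method (normalized CPM), whose factor was 0.448 in that library and 0.995 to 1.36 in the others. The samples carried their label: all 9 Paneth markers were measured, at a summed 317580 to 466638 normalized CPM in PBS and 392721 to 1235420 in TNF. The highest TNF sum is inflated by the TMM factor of 0.448 in TNF replicate 4. Of the 9 markers 2 were higher and 0 lower in TNF (22.2% called, beside 43.0% of all tested genes, median log2 fold change 0.67). Of 9 immune cell markers 5 were at 0 in every library and 1 was tested and not called (summed 6.93 to 12.5 in PBS and 9.69 to 65.4 in TNF), and of 7 stroma markers 2 were at 0. Of 7 goblet markers 1 was higher and 2 lower in TNF (summed 7160 to 11190 and 11243 to 25451), and of 6 cycling cell markers 1 was lower. Of 5 stem cell markers 4 were lower in TNF, with sums that overlapped (1455 to 2352 in PBS and 1313 to 1856 in TNF). Of 4 tested enteroendocrine markers 3 were higher (summed 10.3 to 13.2 and 30.3 to 61.0). Of 8 enterocyte markers 3 were lower (37.5%, summed 98.1 to 135 and 48.1 to 101). Vim, the 1 stroma marker tested, was higher (the 7 summed to 0.223 to 0.453 and 1.23 to 1.73). Among all tested genes 43.0% were called, 23.3% as higher and 19.6% as lower. The part of these markers in the results was not tested.

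In PBS the 10 genes were spread over a 56.8-fold range of levels per kilobase of exon. Slc3a2, the transporter heavy chain, was the highest at 24.9 ± 3.22 normalized CPM per kilobase (SD, n = 4), followed by Asns at 17.6 ± 1.47. The serine and glycine enzymes came next, with Phgdh at 14.5 ± 2.25, Shmt2 at 12.3 ± 2.05 and Psat1 at 9.88 ± 1.01. Chac1 lay at 6.74 ± 2.50 and Cth at 3.45 ± 0.531 on the same per-kilobase scale. The lowest 3 were Sesn2 at 2.33 ± 0.257, Trib3 at 1.26 ± 0.354 and Slc7a11, the cystine exchanger, at 0.439 ± 0.185. The values of Slc3a2 lay above those of Asns in PBS with no overlap, while from Asns down to Cth each gene overlapped the next in the order. Below Cth the steps to Sesn2, to Trib3 and to Slc7a11 were each free of overlap. The order in TNF was the same except that Trib3 (2.38 ± 0.439 normalized CPM per kilobase) stood above Sesn2 (0.723 ± 0.273). With the length of the longest transcript in place of all exons, Psat1 and Shmt2 changed places in PBS.

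**Figure D1:**
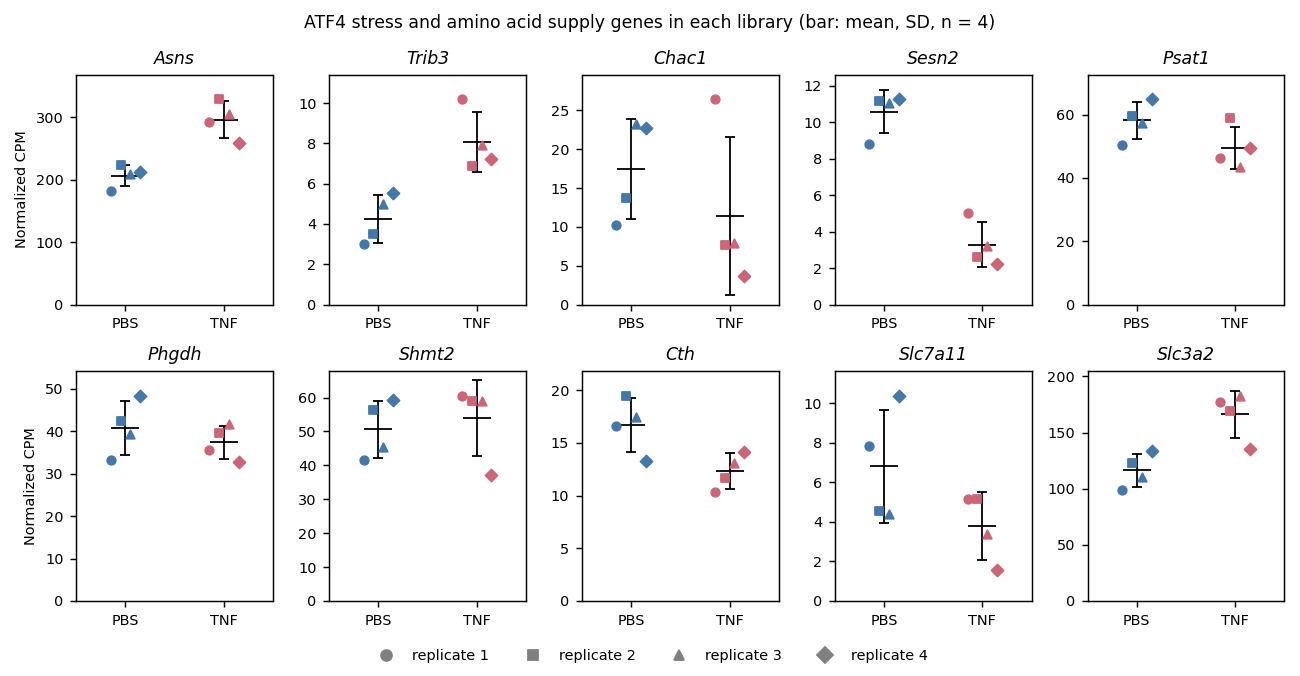
Normalized CPM of each of the 10 genes (1 panel each, linear axes from 0) in the 4 PBS and 4 TNF libraries, with 1 point per library and bars for the mean and SD. The groups do not overlap for Asns, Trib3, Sesn2 and Slc3a2, and in Chac1 TNF replicate 1 (26.5) sits far above the other 3 TNF libraries (3.70 to 7.97).

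After TNF the 10 genes did not move as a block. Of the 10, 3 rose (Asns, Trib3 and Slc3a2), 2 fell (Sesn2 and Cth) and 5 did not pass the test (edgeR quasi-likelihood test, adjusted p under 0.05 over all tested genes). Among all 13368 tested genes, 43.0% were called, 23.3% as higher and 19.6% as lower in TNF, so the share of called genes in the group was close to that of the transcriptome. The groups were free of overlap in 4 of the 10 genes, against 42.1% of all tested genes. Their median log2 fold change was -0.18, beside 0.03 over all tested genes. Because these are bulk samples, fewer cells of a type and less RNA per cell cannot be told apart. Scaling by library size alone, which gives the defensin-rich TNF replicate 4 no correction, moved the all-gene median by -0.40 and left 757 genes higher and 2425 lower, beside 3121 and 2625 with TMM. Under that scaling the 3 rises among the 10 genes were no longer called.

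**Figure D2:**
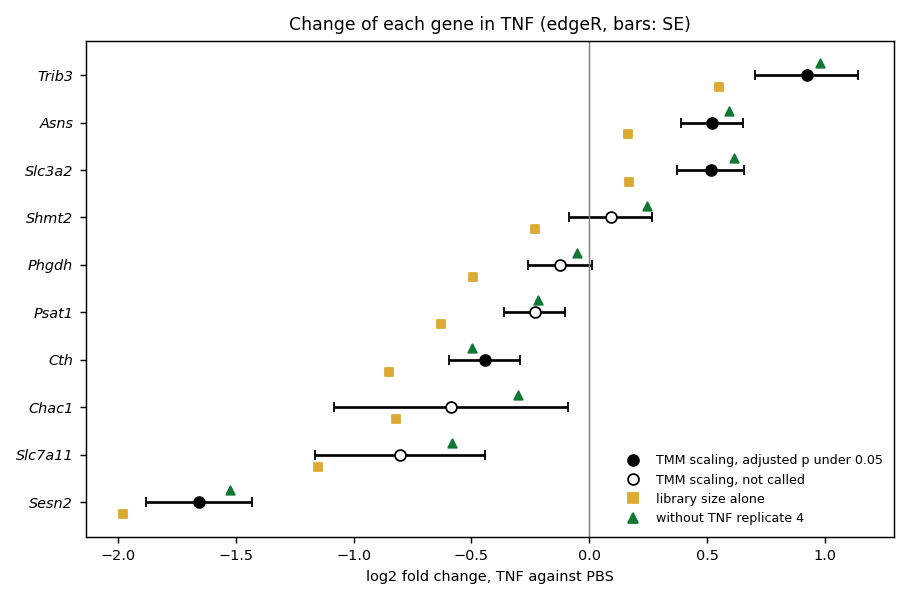
Log2 fold change of TNF against PBS for the 10 genes, with bars for the standard error, filled circles for genes called at an adjusted p under 0.05 and open circles for the rest. Squares give the value with library size alone and triangles that without TNF replicate 4. Asns, Trib3 and Slc3a2 lie to the right of 0, Sesn2 and Cth to the left, and Sesn2 is the farthest from 0 at -1.66.

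Sesn2 showed the largest change of the 10 genes in the main test. It stood at 8.82, 11.2, 11.0 and 11.3 normalized CPM in PBS replicates 1 to 4 and at 5.04, 2.63, 3.23 and 2.23 in TNF replicates 1 to 4. Every TNF library was below every PBS library, and the highest TNF value was that of replicate 1. The mean fell from 10.6 ± 1.17 to 3.28 ± 1.24 (SD, n = 4; log2 fold change -1.66, SE 0.23, edgeR adjusted p = 0.000195). The gene (chr4:132219335-132237815, minus strand, GRCm39) kept this call under each of the 17 alternative settings, with log2 fold changes from -1.98 to -1.52.

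Trib3, the feedback pseudokinase, moved the other way from a low level. Its PBS libraries held 3.00, 3.497, 4.97 and 5.55 normalized CPM and its TNF libraries 10.2, 6.89, 7.90 and 7.22. The groups did not overlap, and TNF replicate 1 was again the highest of its group. Trib3 (chr2:152179337-152191958, minus strand) rose from a mean of 4.25 ± 1.20 to 8.05 ± 1.49 (log2 fold change 0.92, SE 0.22, edgeR adjusted p = 0.00571). The call was lost with library size alone (log2 fold change 0.55, edgeR adjusted p = 0.291).

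Chac1, whose product degrades glutathione, varied most between TNF libraries among the 10 genes, with a coefficient of variation of 89.2% (37.0% in PBS, where that of Slc7a11 was 42.1%). It stood at 10.3, 13.8, 23.2 and 22.7 normalized CPM in PBS and at 26.5, 7.62, 7.97 and 3.70 in TNF. TNF replicate 1 was above all PBS libraries, whereas the other 3 TNF libraries were below all of them. Across the groups the mean was 17.5 ± 6.48 in PBS and 11.4 ± 10.2 in TNF, and the log2 fold change of -0.59 (SE 0.49) was not called (edgeR adjusted p = 0.364). Without TNF replicate 1 it was -1.42 and passed the test (edgeR adjusted p = 0.00814), so 1 library decided the call. Chac1 lies at chr2:119180757-119184866 on the plus strand.

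Asns, the asparagine synthetase gene, is one of the best known ATF4 targets. It was measured at 182, 223, 209 and 212 normalized CPM in PBS and at 292, 329, 305 and 259 in TNF. The lowest TNF library, replicate 4, was still above the highest PBS library. Its mean rose from 206 ± 17.2 to 296 ± 29.2 (log2 fold change 0.52, SE 0.13, edgeR adjusted p = 0.00841). The call was lost without PBS replicate 1 (0.44, edgeR adjusted p = 0.0794), without TNF replicate 2 (0.43, edgeR adjusted p = 0.0690), with no filter on low counts (0.48, edgeR adjusted p = 0.0562) and with library size alone (0.16, edgeR adjusted p = 0.732). The gene (chr6:7671667-7728461, minus strand) shares 391 exon bases with 1700012J15Rik, an opposite-strand RNA too low to be tested, and the sources used here do not state whether counting used strand.

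The serine and glycine enzymes gave no call in either direction. Phgdh, the entry enzyme of serine synthesis (chr3:98220484-98255047), stood at 33.2, 42.4, 39.3 and 48.4 normalized CPM in PBS and at 35.7, 39.6, 41.6 and 32.8 in TNF. Psat1, which acts next (chr19:15882039-15924701), stood at 50.5, 59.7, 57.5 and 64.9 in PBS and at 46.3, 58.8, 43.4 and 49.6 in TNF. The groups overlapped in both genes. The log2 fold change was -0.12 (SE 0.14, edgeR adjusted p = 0.489) for Phgdh and -0.23 (SE 0.13, edgeR adjusted p = 0.170) for Psat1. Shmt2, the mitochondrial serine hydroxymethyltransferase (chr10:127352266-127358323), stood at 41.6, 56.3, 45.5 and 59.2 in PBS and at 60.6, 58.9, 58.9 and 37.0 in TNF. In Shmt2, 3 TNF libraries lay near the PBS maximum and TNF replicate 4 below all PBS libraries (log2 fold change 0.09, SE 0.18, edgeR adjusted p = 0.703). Its sign turned with library size alone (-0.23) and without PBS replicate 1 (-0.02), and the gene shares 727 exon bases with Ndufa4l2 on the other strand, which was too low to be tested.

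Cth, which makes cysteine from the methionine side, was lower after TNF by a small margin. The PBS libraries held 16.6, 19.5, 17.4 and 13.3 normalized CPM and the TNF libraries 10.3, 11.6, 13.1 and 14.2. Only PBS replicate 4 was within the range of the TNF group. Cth (chr3:157599868-157630739) fell from a mean of 16.7 ± 2.57 to 12.3 ± 1.70 (log2 fold change -0.44, SE 0.15, edgeR adjusted p = 0.0336). The call did not hold without PBS replicate 1 (-0.48, edgeR adjusted p = 0.0533), PBS replicate 2 (-0.36, 0.101), PBS replicate 3 (-0.42, 0.0780), TNF replicate 1 (-0.40, 0.0780) or TNF replicate 2 (-0.46, 0.0632). Nor did it hold with the replicate number as a block (-0.44, edgeR adjusted p = 0.0755) or at a threshold of 0.01.

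The cystine exchanger had lower values after TNF without passing the test, whereas its heavy chain rose. Slc7a11 (chr3:49846975-50398070) was measured at 7.86, 4.58, 4.42 and 10.4 normalized CPM in PBS and at 5.15, 5.16, 3.37 and 1.55 in TNF. Its groups overlapped, with PBS replicates 1 and 4 above all TNF libraries. The log2 fold change of -0.81 (SE 0.36) was not called (edgeR adjusted p = 0.0959), and of the 17 settings it passed in 1, that with no filter on low counts (-0.83, edgeR adjusted p = 0.0233).

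Slc3a2 (chr19:8684245-8701108) stood at 98.7, 123, 110 and 133 normalized CPM in PBS and at 177, 169, 183 and 136 in TNF. The groups were free of overlap, narrowly so between PBS replicate 4 and TNF replicate 4. The mean rose from 116 ± 15.05 to 166 ± 21.1 (log2 fold change 0.52, SE 0.14, edgeR adjusted p = 0.0137). The call was lost without PBS replicate 1 (0.42, edgeR adjusted p = 0.0990), TNF replicate 1 (0.46, 0.0710) or TNF replicate 2 (0.48, 0.0666), with no filter (0.48, 0.0515) and with library size alone (0.17, 0.749). It was also lost with the replicate number as a block (0.52, edgeR adjusted p = 0.0504) and at a threshold of 0.01. Slc3a2 shares 743 exon bases with Snhg1 on the opposite strand, which stood at 8.12 ± 1.14 in PBS and 9.59 ± 6.11 in TNF.

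Leaving out TNF replicate 4, the library that stood apart, kept 5 of the 10 genes called, beside 6923 of all 13726 tested genes. Sesn2 then had a log2 fold change of -1.52 (edgeR adjusted p = 8.9e-05) and Trib3 one of 0.98 (edgeR adjusted p = 0.00286). Asns had 0.60 (edgeR adjusted p = 0.000477), Slc3a2 0.62 (edgeR adjusted p = 0.000738) and Cth -0.50 (edgeR adjusted p = 0.0138).

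**Figure D3:**
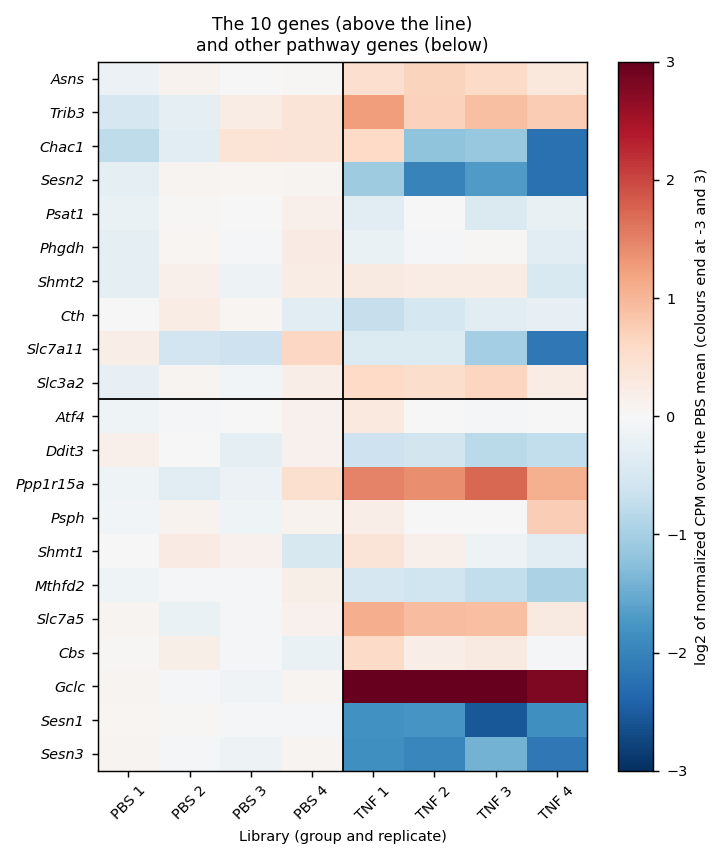
Log2 of normalized CPM over the gene's PBS mean in each library (columns), for the 10 genes (rows above the line) and 11 other pathway genes described in later paragraphs (rows below it), on a color scale that ends at -3 and 3. The Sesn2 row is below its PBS mean in all 4 TNF libraries, the Asns, Trib3 and Slc3a2 rows are above it, and the Chac1 row changes sign between TNF replicate 1 and the other 3.

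Pairs of genes that work together were compared as ratios of counts within each library, which no scaling between libraries can alter. There were 8 such ratios, each with an exact two-sided permutation test that ran through all 70 ways to split the libraries, with a smallest possible p of 0.0286. The pairs were chosen with earlier results of these data known, which these p-values do not take into account. Slc7a11 counts per Slc3a2 count were 0.0796, 0.0373, 0.0400 and 0.0778 in PBS and 0.0291, 0.0306, 0.0184 and 0.0114 in TNF. The groups did not overlap, and the mean log2 ratio was lower by a difference of -1.41 in TNF (exact p = 0.0286, adjusted over the 8 ratios 0.0571). By contrast Slc7a5, the light chain that imports leucine with the same partner, had ratios to Slc3a2 of 0.446 ± 0.0770 in PBS and 0.545 ± 0.0695 in TNF (SD, n = 4, exact permutation p = 0.114, adjusted 0.183).

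The largest difference was that of Chac1 to Gclc, 2 genes at opposite ends of glutathione turnover, since Gclc encodes the catalytic subunit for its synthesis. Chac1 counts per Gclc count were 0.358, 0.536, 0.933 and 0.799 in PBS and 0.124, 0.0300, 0.0277 and 0.0197 in TNF. All TNF libraries, replicate 1 included, were below all PBS libraries, and the geometric mean ratio was 16.3-fold lower (exact permutation p = 0.0286, adjusted 0.0571). Gclc alone had a log2 fold change of 3.13, whereas that of Chac1 was -0.59 and not called. In TNF replicate 1 Chac1 itself was above all PBS libraries. Cth to Cbs, the enzyme that feeds Cth its substrate, went from 1.44 ± 0.0960 to 0.915 ± 0.266 without overlap (exact permutation p = 0.0286, adjusted 0.0571). Trib3 to Atf4 went from 0.0268 ± 0.00592 to 0.0485 ± 0.00410, a 1.84-fold higher geometric mean ratio with no overlap (exact permutation p = 0.0286, adjusted 0.0571).

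The ratio of Slc7a5 and the other 3 overlapped between the groups. Psat1 to Phgdh was 1.43 ± 0.0781 in PBS and 1.33 ± 0.217 in TNF (exact permutation p = 0.514, adjusted 0.588). Psph, the last enzyme of serine synthesis, had ratios to Phgdh of 0.290 ± 0.0316 and 0.389 ± 0.147 (exact permutation p = 0.229, adjusted 0.305). Mitochondrial Shmt2 to its cytosolic counterpart Shmt1 was 2.17 ± 0.809 and 2.15 ± 0.348 (exact permutation p and adjusted p = 0.914). None of the 8 ratios passed 0.05 after adjustment, and the 4 without overlap had the smallest p that 4 against 4 libraries allow. With 1 library left out the exact permutation p of Slc7a11/Slc3a2, Cth/Cbs and Chac1/Gclc reached 0.0571. That of Trib3/Atf4 stayed at 0.0286.

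**Figure D4:**
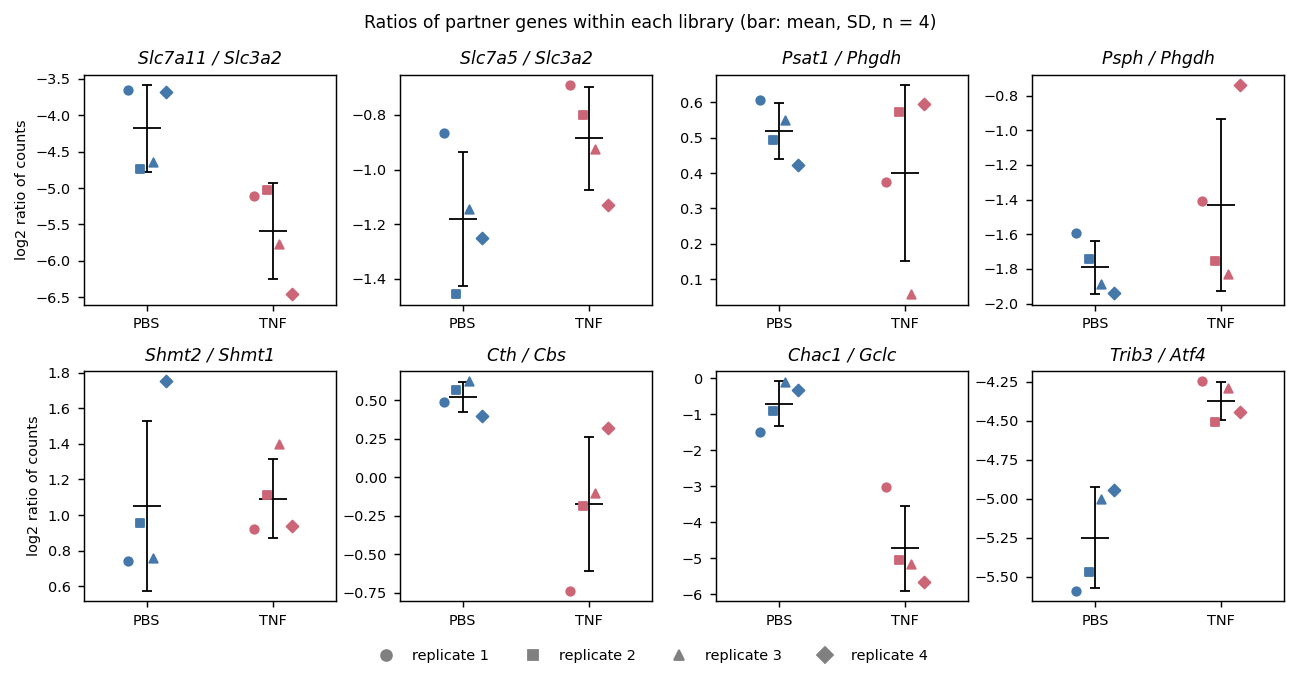
Log2 ratio of the counts of partner genes within each library (1 panel per pair, axes not from 0), with 1 point per library and bars for the mean and SD of the 4 libraries of a group. The groups separate for Chac1/Gclc, Slc7a11/Slc3a2, Cth/Cbs and Trib3/Atf4, and overlap for the ratios of the serine and glycine enzymes.

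The machinery that sets ATF4 activity was looked at next, in a list of 20 genes that holds Atf4, the eIF2 kinases, the eIF2 and eIF2B subunits and the phosphatase regulators. Of the 20, 10 rose, 1 fell and 9 were not called (55% called, beside 43.0% of all tested genes), with a median log2 fold change of 0.29 beside 0.03. With library size alone 1 was higher and 1 lower, with a median of -0.08. Atf4 mRNA stood at 157 ± 11.0 normalized CPM in PBS and 165 ± 18.8 in TNF and was not called (log2 fold change 0.07, SE 0.12, edgeR adjusted p = 0.666). Its sign turned with library size alone (-0.30) and without TNF replicate 1 (-0.04). ATF4 is controlled largely at translation, which RNA counts do not measure. Ppp1r15a, the phosphatase subunit that reverses eIF2 phosphorylation, rose from 12.9 ± 3.42 to 35.04 ± 6.55 (edgeR adjusted p = 0.000181). Eif2ak2, the RNA-sensing eIF2 kinase PKR, rose from 8.67 ± 2.69 to 23.6 ± 2.43 (edgeR adjusted p = 0.000267), and Cebpg, a binding partner of ATF4, from 36.4 ± 6.16 to 71.2 ± 6.31 (edgeR adjusted p = 0.000233). With library size alone these 3 rises were not called (edgeR adjusted p = 0.0596, 0.0629 and 0.233). Ddit3, which encodes the stress factor CHOP, was the 1 gene that fell, from 3.01 ± 0.406 to 1.88 ± 0.145 (log2 fold change -0.68, SE 0.18, edgeR adjusted p = 0.0115). The falls in this list numbered 2 without TNF replicate 4 and 0 at a threshold of 0.01.

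Other known ATF4 targets also moved both ways. Of 13 listed, 11 were tested, 5 rose and 3 fell (72.7% called, beside 43.0% of all tested genes), with a median log2 fold change of 0.68. Atf3, an early stress factor, went from 1.47 ± 0.466 to 9.35 ± 1.86 normalized CPM (log2 fold change 2.67, SE 0.24, edgeR adjusted p = 1.03e-05). Cebpb, another C/EBP factor, went from 2.22 ± 0.483 to 10.03 ± 2.16 (log2 fold change 2.18, SE 0.22, edgeR adjusted p = 2.01e-05). Ndrg1 fell from 128 ± 5.81 to 70.4 ± 8.56 (edgeR adjusted p = 0.000224). With library size alone, 2 of the 11 were higher and 3 lower. Without any 1 TNF library all 13 listed genes passed the filter on low counts, and 5 of these 13 were lower.

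Around Phgdh, Psat1 and Shmt2 stand the other serine, glycine and one-carbon enzymes. Of 18 tested, 1 rose, 4 fell and 13 were not called (27.8% called, beside 43.0% of all tested genes; median log2 fold change -0.12). The 1 rise was lost without PBS replicate 1, TNF replicate 1 or TNF replicate 2, with no filter, at a threshold of 0.01, and with library size alone (0 higher and 4 lower, median -0.54). Psph (11.7 ± 1.06 in PBS and 14.2 ± 3.77 in TNF, edgeR adjusted p = 0.256) and Shmt1 (24.6 ± 4.98 and 25.2 ± 5.59, edgeR adjusted p = 0.873) were among the 13. Mthfd2, the mitochondrial one-carbon enzyme that works downstream of Shmt2, fell from 71.8 ± 6.74 to 44.4 ± 5.99 (log2 fold change -0.69, SE 0.13, edgeR adjusted p = 0.0014). Amt, of the glycine cleavage system, fell from 6.01 ± 0.376 to 1.61 ± 0.388 (edgeR adjusted p = 2.39e-05), and Mtr, methionine synthase, from 4.99 ± 0.315 to 2.87 ± 0.762 (edgeR adjusted p = 0.00831).

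Enzymes for other amino acids, the wider class of Asns, went both ways: of 16 tested, 6 rose and 5 fell (68.8% called, beside 43.0% of all; median -0.20). With library size alone 2 were higher and 6 lower, and with 1 library left out 5 to 6 were higher and 3 (without PBS replicate 2, PBS replicate 3 or TNF replicate 3) to 7 (without TNF replicate 4) lower. Glul, glutamine synthetase, rose from 110 ± 5.99 to 305 ± 46.9 normalized CPM (edgeR adjusted p = 1.58e-05). Gpt2, the mitochondrial alanine transaminase, fell from 56.6 ± 14.0 to 15.4 ± 2.68 (edgeR adjusted p = 2.37e-05).

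Around Cth and Chac1 stand the other cysteine and glutathione enzymes. Of 16 tested, 3 rose and 6 fell (56.3% called, beside 43.0% of all; median -0.07), and with library size alone 2 were higher and 4 lower. Gclc stood at 28.7, 25.7, 24.9 and 28.4 normalized CPM in PBS and at 214, 254, 288 and 188 in TNF. The groups were far apart, at means of 26.9 ± 1.92 and 236 ± 43.9 (log2 fold change 3.13, SE 0.16, edgeR adjusted p = 3.18e-07). Mat2a, which makes S-adenosylmethionine, rose from 41.8 ± 4.86 to 177 ± 22.2 (edgeR adjusted p = 1.56e-06). Cdo1, which oxidizes cysteine, fell from 22.6 ± 4.00 to 8.58 ± 1.06 (edgeR adjusted p = 5.61e-05). Cbs stood at 11.6 ± 1.27 and 14.0 ± 2.42 and was not called (log2 fold change 0.27, edgeR adjusted p = 0.156), although it was without TNF replicate 4 (0.37, edgeR adjusted p = 0.0345).

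Amino acid transporters other than Slc7a11 and Slc3a2 also went both ways. Of 24 tested, 5 rose and 8 fell (54.2% called, beside 43.0% of all; median -0.08), and with library size alone 1 was higher and 3 lower. Without PBS replicate 2 the falls numbered 4, and without PBS replicate 1 or TNF replicate 3 they numbered 5. Slc7a5 rose from 51.2 ± 5.03 to 91.3 ± 20.5 normalized CPM (log2 fold change 0.84, SE 0.17, edgeR adjusted p = 0.00241), and Slc7a6, another light chain that binds Slc3a2, from 13.7 ± 1.30 to 25.9 ± 3.35 (edgeR adjusted p = 0.000237). Neither was called with library size alone (edgeR adjusted p = 0.344 and 0.268). Slc6a14, a broad amino acid importer, had 0, 2, 0 and 2 counts in the PBS libraries and stood at 2.38, 3.64, 3.97 and 2.92 normalized CPM in TNF (edgeR adjusted p = 3.62e-06). Slc43a2, a leucine transporter, fell from 50.4 ± 5.22 to 14.2 ± 3.28 (edgeR adjusted p = 1.17e-05).

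The cytosolic tRNA synthetases, many of them ATF4 targets, had 7 of 20 higher and 0 lower (35% called, beside 43.0% of all tested genes, of which 23.3% were higher; median 0.24). Wars1, the tryptophan enzyme and a well-known interferon-induced gene, rose from 201 ± 27.3 to 899 ± 125 (edgeR adjusted p = 5.09e-06). Rars1 rose from 72.9 ± 3.38 to 127 ± 11.8 (edgeR adjusted p = 0.000232) and Farsa from 12.5 ± 0.915 to 20.01 ± 2.00 (edgeR adjusted p = 0.000863). The number called was 3 without PBS replicate 1, TNF replicate 1 or TNF replicate 2, 11 without TNF replicate 4, and 1 with library size alone.

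The other sestrins fell together with Sesn2. In the list of sestrin, tribbles and mTORC1 sensing genes, 5 of 24 tested rose and 8 fell (54.2% called, beside 43.0% of all; median -0.19), and with library size alone 0 were higher and 9 lower. Without PBS replicate 1, 2 or 3 the rises numbered 2, and without PBS replicate 4 they numbered 3. Sesn1 stood at 7.37, 7.33, 6.90 and 6.86 normalized CPM in PBS and at 2.02, 2.08, 1.23 and 1.98 in TNF. Sesn3 stood at 26.5, 24.4, 22.5 and 26.7 in PBS and at 7.03, 6.47, 9.37 and 5.67 in TNF. In both genes all TNF libraries were below all PBS libraries. The log2 fold change was -1.97 for Sesn1 (SE 0.18, edgeR adjusted p = 1.40e-05) and -1.80 for Sesn3 (SE 0.16, edgeR adjusted p = 9.04e-06), beside -1.66 for Sesn2. Castor2, related to the arginine sensor of mTORC1, fell from 2.74 ± 0.419 to 0.519 ± 0.0784 (edgeR adjusted p = 1.68e-05).

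Genes of the NRF2 pathway, which also controls Slc7a11 and Gclc, had 3 of 10 higher and 1 lower (40% called, beside 43.0% of all; median 0.24). Txnrd1, thioredoxin reductase, rose from 89.8 ± 4.96 to 222 ± 39.9 (edgeR adjusted p = 5.34e-05) and Srxn1, sulfiredoxin, from 13.8 ± 1.16 to 24.3 ± 5.89 (edgeR adjusted p = 0.00269). With library size alone neither was called (edgeR adjusted p = 0.0581 and 0.329). Gstm1, a glutathione transferase, fell from 19.1 ± 2.92 to 10.7 ± 1.48 (edgeR adjusted p = 0.00126).

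**Figure D5:**
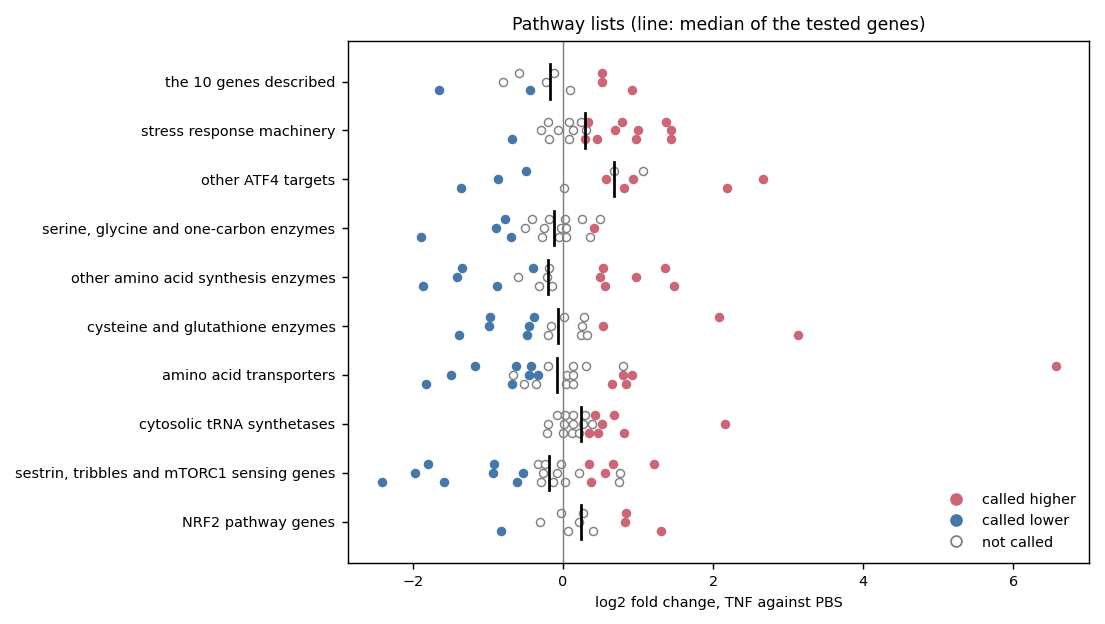
Log2 fold change of TNF against PBS for each tested gene of the 10 described and of the pathway lists, with 1 point per gene (filled red, called higher; filled blue, called lower; open, not called) and a black line at each list's median. The medians run from -0.20 (other amino acid synthesis enzymes) to 0.68 (other ATF4 targets), and most lists hold called genes on both sides of 0.

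For the 3 called genes with the largest changes, the genes with the most similar profile over the 8 libraries were looked up among 8199 well-measured genes. Likeness was the Euclidean distance between log2 normalized CPM profiles, each centred on its PBS mean. Nearest to Sesn2 were Axin2 (distance 0.616), a Wnt target and stem cell marker, Fzd9 (0.633), a Wnt receptor, and Syde2 (0.646). Axin2 stood at 49.5 ± 4.83 normalized CPM in PBS and 17.1 ± 5.41 in TNF. Nearest to Trib3 were Zfp513 (0.515), Polr1f (0.601) and Pigm (0.611). Near to Asns were Anxa5 (0.190) and Ist1 (0.198).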

How the data were processed

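Bulk RNA-seq of sorted Paneth cells from PBS- and TNF-injected WT mice was analysed from the table of raw counts per Ensembl gene that the authors deposited, with 1 column per library. The Aurum Total RNA Mini kit served for RNA isolation and the TruSeq Stranded mRNA kit for library preparation. The submitters' processing notes name FastQC 0.12, STAR 2.7.10a, DESeq2 and mm39. Not given in the sources used here are the counting tool, its use of strand and its handling of reads that match several genes.

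Names, positions and exon lengths came from GENCODE release 39 for mouse (GRCm39), which matched 54749 of the IDs. Genes were tested in R 4.3.3 with the quasi-likelihood test of edgeR 4.0.16 (TMM scaling, filterByExpr, no covariate). Benjamini-Hochberg adjustment ran over all tested genes, and an adjusted p under 0.05 was called. Standard errors were derived from the F statistic. Profiles used a prior count of 2 and genes with a mean of at least 5 normalized CPM. On simulated counts (13177 genes), 84 of 100 genes changed 2-fold and 100 of 100 changed 4-fold were recovered, with 9 false calls. The simulation gave both groups the means and spread of the PBS libraries, changed only these genes and held no library like TNF replicate 4. Its figures therefore do not give the error rates of the real comparison. P-values measure the spread between these libraries.

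Alternatives were RLE scaling, library size alone, TMM without Defa genes, DESeq2 1.42.0, limma-voom (limma 3.58.1), no filter beyond 1 count, a minimum of 1 CPM in 4 or more libraries, the replicate number as a block, a threshold of 0.01, and leaving out each library. The 10 genes, the lists, the pairs and the rule for named genes were chosen with earlier results of these data known. That rule took the 10 genes, Atf4, Ddit3, Ppp1r15a, Psph, Shmt1, Mthfd2, Slc7a5, Cbs, Gclc, the 3 genes of each pathway list with the smallest p, and the 3 nearest profiles. Some genes that the rule took are not reported here. No pair of libraries within a group had counts alike enough (chi-square over genes whose counts summed to 20 or more) to be a duplicate.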

Additional observations from a re-analysis of the deposited data

Results flagged for a closer look

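In 7 of the 104 groups of 4 libraries looked at, 1 library stood apart from the other 3 by more than Dixon's critical value of 0.829, which chance gives in about 1 of 20 groups. Among the 10 genes, Sesn2 had 8.82 normalized CPM in PBS replicate 1, beside 11.0 to 11.3 in the other PBS libraries. Shmt2 was at 37.0 in TNF replicate 4 and at 58.9 to 60.6 in the other TNF libraries. Of the pathway genes, Atf4 was at 193 in TNF replicate 1 (155 to 157 in the others) and Sesn1 at 1.23 in TNF replicate 3 (1.98 to 2.08). In PBS replicate 4, Cebpg was at 45.6 (32.96 to 33.7 in the others) and Cdo1 at 16.6 (24.1 to 25.4). Axin2, the nearest profile to Sesn2, was at 25.2 in TNF replicate 1 and at 13.4 to 15.03 in the other TNF libraries.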

How the results depend on the processing

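Of the 10 genes, 5 were called, and this number was 2 with library size alone, 3 at a threshold of 0.01, and 2 to 5 with 1 library left out (2 without PBS replicate 1 or TNF replicate 2). The calls over all genes also changed, from 5746 of 13368 in the main test to 3182 with library size alone and 3909 at 0.01. With 1 library left out they ran from 4757 of 13544 (without PBS replicate 1) to 6923 of 13726 (without TNF replicate 4). Library size alone left 2 calls in the stress response machinery, 5 in the other ATF4 targets, 4 in the transporters, 1 in the tRNA synthetases and 1 in the NRF2 genes. At 0.01 there were 3 in the serine and glycine enzymes, 8 in the transporters, 4 in the tRNA synthetases and 8 in the sestrin and mTORC1 genes. With no filter, 4 tRNA synthetases were called, and with 1 library left out 3 to 11. Signs turned with library size alone for Shmt2 (-0.23), Atf4 (-0.30), Psph (-0.22), Shmt1 (-0.27) and Cbs (-0.0606), none of them called. With 1 library left out they also turned for Shmt2 (-0.0162 without PBS replicate 1, up to 0.247), Atf4 (-0.0405 without TNF replicate 1, up to 0.113), and Shmt1 (-0.120, -0.115 and -0.0276 without PBS replicate 4, TNF replicate 1 or TNF replicate 2, up to 0.164), and the log2 ratio difference of Shmt2 to Shmt1 ran from -0.0627 to 0.273. The cause was not tested. Libraries with the same replicate number did not deviate together (correlations across genes -0.14 to 0.07), so the numbers were not taken as pairs. With the replicate number as a block, 5087 of all 13368 tested genes were called. Of the 10 genes 3 were called, since Cth (-0.44, edgeR adjusted p = 0.0755) and Slc3a2 (0.52, edgeR adjusted p = 0.0504) were not. Counts were fewest in TNF replicate 4, at 18 for Slc7a11, 26 for Sesn2, 43 for Chac1 and 84 for Trib3.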
